A study of Mus musculus with 4 samples.

Results

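The promoters of 7 genes of the TGFB1 pathway were followed in H3K4me3 HiChIP of mouse lung fibroblasts. They were the ligand genes Tgfb1, Tgfb2 and Tgfb3, Ltbp2 of the latent TGFB binding protein family, and the response genes Tgfbi, Pmepa1 and Bhlhe40. The genes were selected by name as ligands and early targets of the pathway, with earlier results of these data known. They are 7 of the 21728 coding genes on chromosomes 1 to 19 and X. Each was represented by its GENCODE transcription start site (TSS) on mm10. In pair ends of untreated cells Pmepa1, Tgfb2 and Bhlhe40 were among the strongest H3K4me3 HiChIP promoters, above 99.3%, 96.2% and 95.3% of promoters with an enriched region. Tgfb1 was above 86.4% of these, Tgfb3 above 48.5% and Ltbp2 above 20.1%, and Tgfbi lay below the median coding promoter. These ranks use ends not divided by restriction sites, and per site Tgfb1 was above Tgfb2 in Control. For pair ends relative to the median coding promoter, 6 of the 7 were highest in the Control library and lowest in the library with both TGFB1 and the miR-9 antagomiR, and Tgfbi was the exception. Most promoters with an enriched region differed the same way between libraries. Compared with Control, 96.4% of them were lower in TGFB1 and 98.8% with the antagomiR alone. With both treatments 97.8% were lower than in TGFB1 and 84.8% lower than with the antagomiR alone. The regions were called on the 4 libraries pooled, and Control had the largest share of ends in them, at 9.62%. Only 37.9% of coding promoters had a region, so the median coding promoter reflects mostly promoters without one. The part of both in these shares was not tested. Among the 7 genes, counting intervals of Control and TGFB1 overlapped at Tgfb3, Ltbp2 and Tgfbi, and those of the antagomiR libraries at each gene but Pmepa1.

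TGFB ligands are secreted in a latent form that some members of the latent TGFB binding protein family store in the extracellular matrix. Once released, the ligands bind type I and type II receptor kinases that phosphorylate SMAD2 and SMAD3. These enter the nucleus with SMAD4 and activate target genes, among them inhibitors that limit the response. In lung fibroblasts the pathway is best known for driving matrix production and fibrosis. H3K4me3 marks the nucleosomes at active promoters, and HiChIP joins DNA that is close in the nucleus before the mark is immunoprecipitated, so that each sequenced pair reports 2 places that lay close together, and places with the mark are enriched among them.

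MLg cells, an established mouse lung fibroblast line, gave 4 libraries with an antibody to H3K4me3. They were labelled Control (WT), TGFB1 (human recombinant TGFB1 at 5 ng/ml for 4 h), TGFB1+miR-9-LOF (the same TGFB1 treatment with an antagomiR against miR-9-5p at 60 nM) and miR-9-LOF (the antagomiR alone), and transfected cells were harvested after 24 h. No antagomiR is given in the labels of the Control and TGFB1 libraries, whose cells the study describes as control-transfected. Each condition has 1 library of 1 cell line, so every ratio below compares libraries, no difference between conditions can be tested, and all intervals cover counting error only.

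The libraries held 10864558 to 15568047 valid pairs, and 86.6% to 90.8% of pairs had both ends mapped with a quality of 30 or more. The share of pair ends in 8763 enriched regions, called on the pooled libraries in 1-kb bins, was 9.62% in Control and 6.95% in TGFB1, then 4.06% in TGFB1+miR-9-LOF and 4.71% with the antagomiR alone. Pair ends at 6 of the 7 promoters below ranked the libraries in the same order, and the part of this share in them was not tested. An enriched region lay at 8229 coding promoters, or 37.9%. It lay at 6 of 10 fibroblast marker genes, with no region at Col1a2, Col3a1, Fn1 and Thy1, and at 0 of 6 epithelial, 0 of 4 endothelial and 0 of 4 leukocyte marker genes.

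The antagomiR in the LOF libraries is directed against miR-9-5p, whose mature sequence in RefSeq (GRCm38.p6) is identical for Mir9-1 on chromosome 3, Mir9-2 on chromosome 13 and Mir9-3 on chromosome 7. It is shown because the libraries differ by its inhibition, with the seed (bases 2 to 8) in capitals.
mmu-miR-9-5p: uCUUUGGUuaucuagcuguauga

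2 promoters are shown because they belong to ligand genes of the same family with strong promoters and differ in their letters. The 250 bases before the RefSeq start are given 5′ to 3′ on the gene's strand, for Tgfb1 at chr7:25686752-25687001 on the + strand and for Tgfb2 at chr1:186705990-186706239 on the - strand (GRCm38.p6). Capitals mark GGGCGG (the GC box bound by SP1), TATAAA (the TATA box), CACGTG (the E-box of BHLHE40 and related factors) and CTTTGGT (the letters of the miR-9 seed as DNA), each searched on both strands, where overlaps were allowed.
Tgfb1: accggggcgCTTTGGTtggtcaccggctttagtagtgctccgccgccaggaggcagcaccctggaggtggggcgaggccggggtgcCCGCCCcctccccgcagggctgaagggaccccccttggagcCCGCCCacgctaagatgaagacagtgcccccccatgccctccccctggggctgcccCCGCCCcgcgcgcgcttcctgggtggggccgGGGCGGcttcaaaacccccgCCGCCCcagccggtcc
Tgfb2: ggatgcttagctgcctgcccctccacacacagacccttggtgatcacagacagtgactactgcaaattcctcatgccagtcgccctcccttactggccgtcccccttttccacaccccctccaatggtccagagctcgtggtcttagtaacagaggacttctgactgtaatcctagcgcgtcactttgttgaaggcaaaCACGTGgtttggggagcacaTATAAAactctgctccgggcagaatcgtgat

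The RefSeq table held promoters of 4 of the 7 genes. The Tgfb1 window held 5 copies of GGGCGG, which occurred in 32.7% of the 32851 promoters in the RefSeq table, and 1 copy of CTTTGGT, which occurred in 3.49%. It also held 1 match to a G-quadruplex pattern of 4 runs of at least 3 G with loops of 1 to 7 bases, present in 16.7% of promoters, 21 CpG dinucleotides and a GC content of 75.2%. The Tgfb2 window held no GGGCGG, 1 TATAAA (12.4% of promoters), 1 CACGTG (6.02%), 2 copies of GTCTG, the short SMAD-binding letters (42.2%), 8 CpG and a GC content of 53.6%. The windows of Ltbp2 and Tgfbi reach past their GENCODE TSS into the gene, so their counts are not all upstream of it. The Ltbp2 window held 2 GTCTG, 2 GGGCGG, 16 CpG and a GC content of 61.6%, and the Tgfbi window 2 GTCTG, 1 GGGCGG, 1 GGCGCC (9.59% of promoters), 15 CpG and a GC content of 62.4%. Neither the palindromic SMAD letters GTCTAGAC (0.167% of promoters) nor the AP-1 letters TGAGTCA (4.46%) occurred in these 4 windows. A match describes letters and not a bound site.

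The level of a promoter was the number of pair ends within 2 kb of its TSS as a share of all pair ends, divided by the median of all coding promoters in the same library. All windows have the same length, but they differ in restriction sites, which are given below with the levels per site. The median coding promoter held 103 ends in Control and 68 in TGFB1, then 80 in TGFB1+miR-9-LOF and 88 with the antagomiR alone. A mean over a culture cannot tell fewer cells that carry the mark from less mark per cell.

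Among the ligands, Tgfb1 (chromosome 7, TSS at 25687002, + strand), which encodes the mouse counterpart of the added ligand, held 765 ends in Control and 350 in TGFB1, then 300 in TGFB1+miR-9-LOF and 407 with the antagomiR alone. These were 7.43, 5.15, 3.75 and 4.62 times the median coding promoter, and 94.8% of coding promoters were lower in Control. The level was highest in Control and lowest with both treatments.

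Tgfb2 (chromosome 1, TSS at 186705989, - strand) held 1055, 529, 384 and 476 ends in the same order of libraries, or 10.2, 7.78, 4.80 and 5.41 times the median. In ends not divided by restriction sites it was the highest ligand promoter in each of the 4 libraries. Its interval overlapped that of Tgfb1 only in miR-9-LOF, and 98.6% of coding promoters were lower in Control. Tgfb3 (chromosome 12, TSS at 86079041, - strand) held 398, 232, 192 and 230 ends, or 3.86, 3.41, 2.40 and 2.61 times the median, and was the weakest ligand promoter in each. The Control intervals of the ligands did not overlap, at 6.91 to 7.97 for Tgfb1, 9.63 to 10.9 for Tgfb2 and 3.49 to 4.26 for Tgfb3.

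Ltbp2 (chromosome 12, TSS at 84876532, - strand), which encodes a matrix protein of the latent TGFB binding protein family, held 244, 146, 90 and 122 ends. This was 2.37 times the median in Control and 2.15 times in TGFB1, but 1.12 times in TGFB1+miR-9-LOF and 1.39 times with the antagomiR alone. The interval in TGFB1+miR-9-LOF ran from 0.905 to 1.38 and included the median promoter.

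Of the response genes, Pmepa1 (chromosome 2, TSS at 173276533, - strand), which encodes a membrane protein that sequesters receptor-regulated SMADs, held 1418 ends in Control and 663 in TGFB1, then 443 in TGFB1+miR-9-LOF and 616 with the antagomiR alone. At 13.8, 9.75, 5.54 and 7.0 times the median, not divided by restriction sites, it was the highest of the 7 in each library. Its intervals overlapped those of Bhlhe40 in both LOF libraries, and 99.7% of coding promoters were lower in Control. Bhlhe40 (chromosome 6, TSS at 108660629, + strand), which encodes a transcriptional repressor that binds E-boxes, held 1010, 526, 427 and 555 ends, or 9.81, 7.74, 5.34 and 6.31 times the median. Its Control interval of 9.21 to 10.4 overlapped that of Tgfb2, so the order of these neighbours is not resolved by the counts.

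Tgfbi (chromosome 13, TSS at 56609523, + strand), which encodes a secreted matrix protein that binds integrins and collagens, held 79, 70, 75 and 76 ends. This was 0.767 times the median in Control (0.607 to 0.956), 1.03 times in TGFB1, 0.938 times in TGFB1+miR-9-LOF and 0.864 times with the antagomiR alone. It was the only one of the 7 without an enriched region, and 43.2% of coding promoters were lower in Control.

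**Figure D1:**
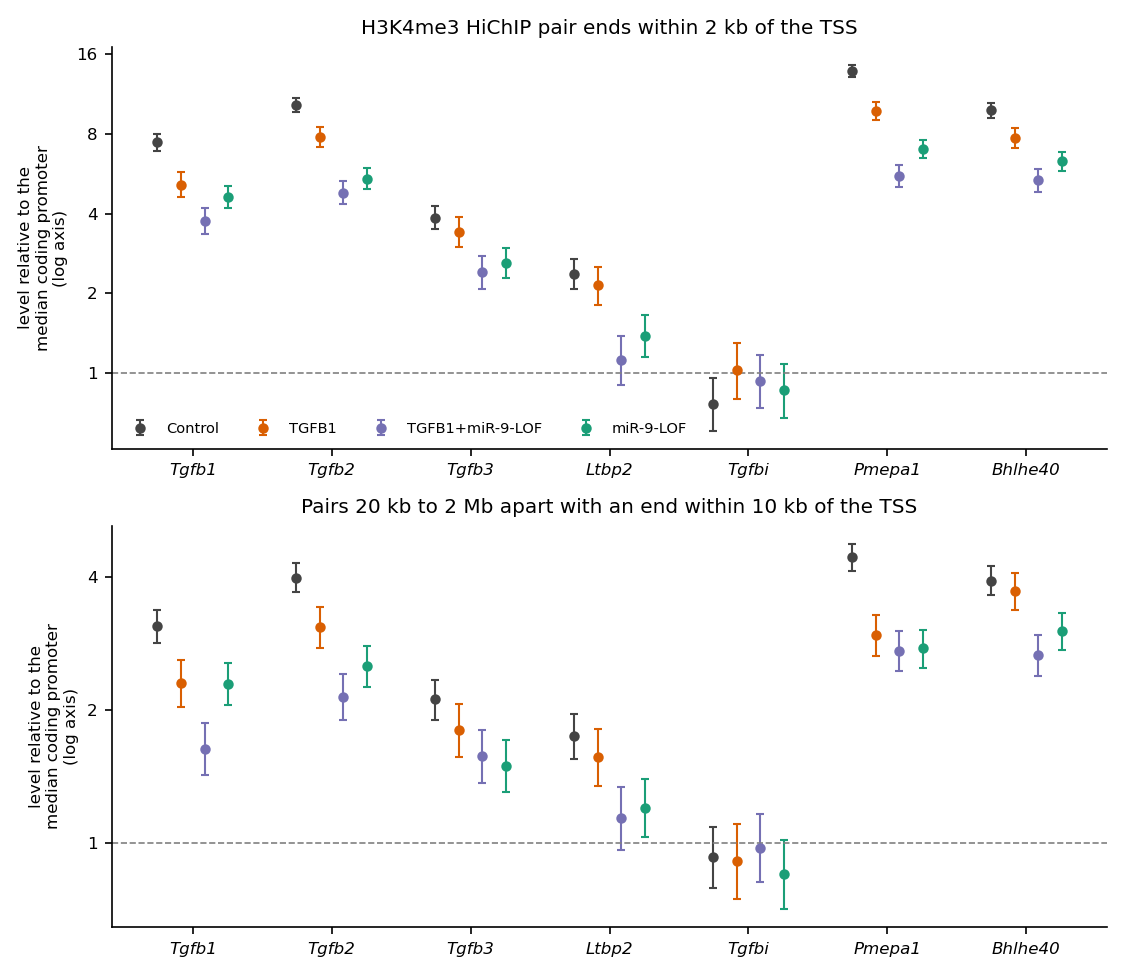
Level of each promoter relative to the median coding promoter of the same library (log axes), for pair ends within 2 kb of the TSS above and contacts below, with 1 point per library and bars for the 95% counting interval. Of the 7 genes, 6 are highest in Control in both panels, and the points of Tgfbi lie near 1.

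The pooled enriched regions spanned 2 kb at Tgfb1, Tgfb2, Pmepa1 and Bhlhe40, 1 kb at Ltbp2 and 4 kb at Tgfb3, which was wider than 99.4% of regions at coding promoters. Pair ends peaked just after the TSS at Bhlhe40 (1340 ends in the 0.5-kb bin centred at 0.25 kb), Pmepa1 (1166 ends) and Tgfb1 (617 ends), at 0.75 kb for Tgfb2 (600 ends), at 1.25 kb for Tgfb3 (392 ends) and at 1.75 kb for Ltbp2 (235 ends). In Control the bins at 0.25 and 0.75 kb held 0 ends at Ltbp2 and Tgfbi, as did the bin at 0.25 kb at Tgfb3. The part of restriction site positions in where ends peak was not tested. Of the ends within 2 kb, 92.4% lay after the TSS at Tgfb1, 85.8% at Tgfb2, 86.5% at Pmepa1 and 85.4% at Bhlhe40, against 62.1% at Tgfb3, 63.7% at Ltbp2 and 45% at Tgfbi. The TSS of B9d2, a gene for a ciliary protein, lies 6.22 kb from that of Tgfb1, and the TSS of Ift43, another ciliary gene, lies 3.5 kb from that of Tgfb3, so the contact windows of Tgfb1 and Tgfb3 each held the promoter of another gene.

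**Figure D2:**
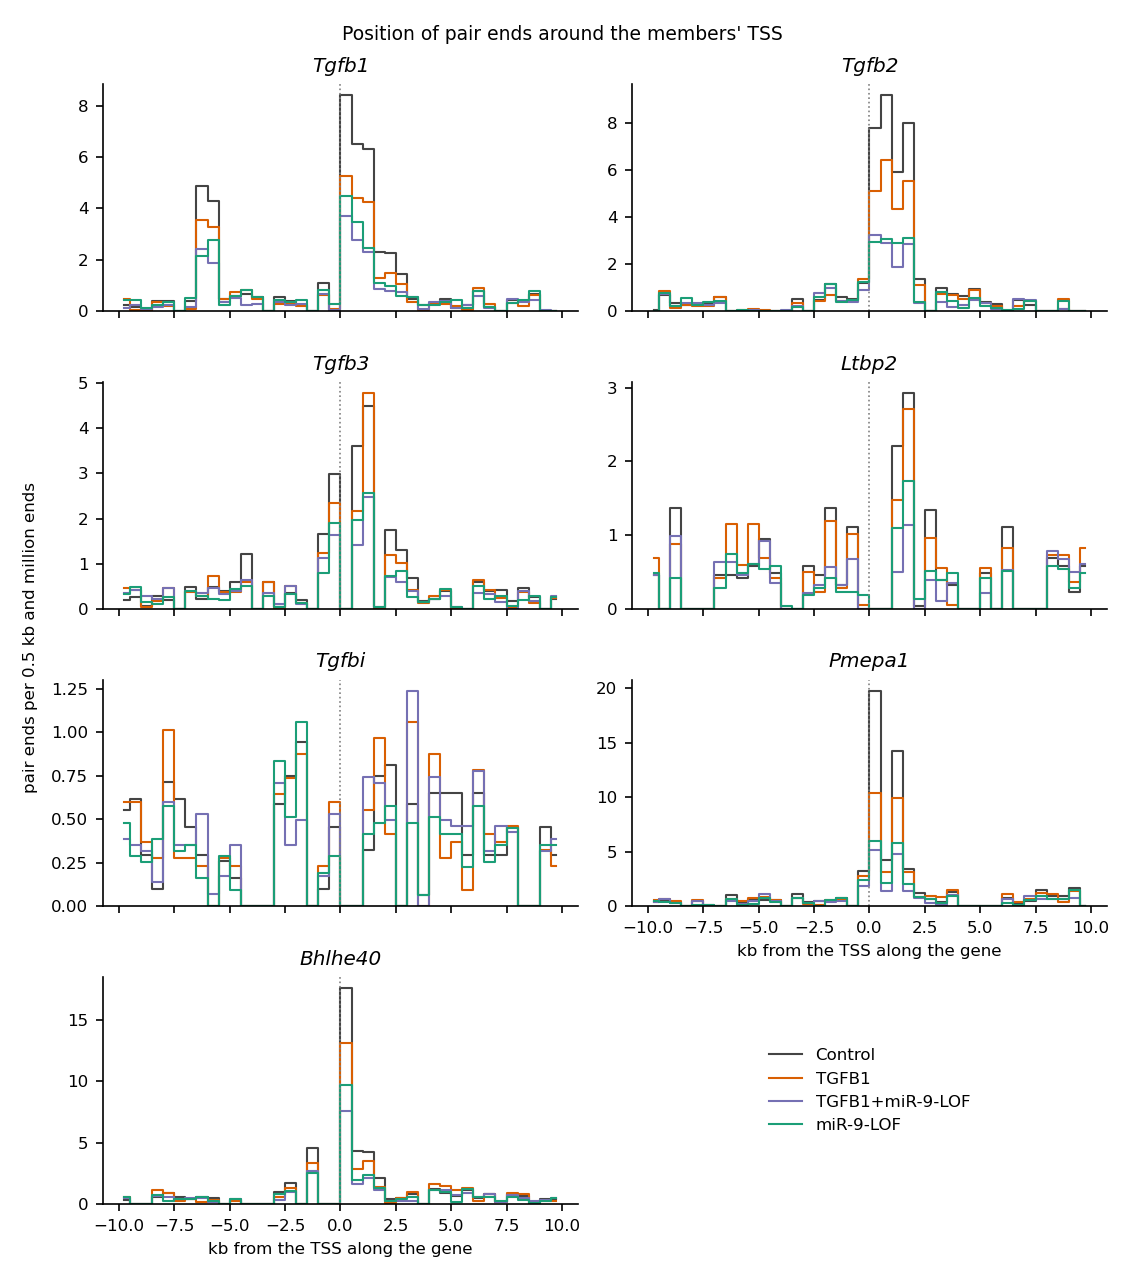
Pair ends per 0.5 kb, scaled to the depth of each library, by distance in kb from the TSS along each gene, with 1 line per library. Ends peak just after the TSS of Tgfb1, Pmepa1 and Bhlhe40 and farther into the gene at Tgfb2, Tgfb3 and Ltbp2, Tgfb1 has another peak near the start of B9d2, and Tgfbi shows no peak at its TSS. Bins without ends lie near the TSS of Tgfb3, Ltbp2 and Tgfbi, and the part of restriction site positions in the peaks was not tested.

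The windows differed in sites for MboI, the restriction enzyme of the assay. Within 2 kb of the TSS there were 10 MboI sites at Tgfb1, 20 at Tgfb2, 12 at Tgfb3, 8 at Ltbp2, 11 at Tgfbi, 16 at Pmepa1 and 10 at Bhlhe40, against a median of 9 over coding promoters. Tgfb2 had more sites than 99.6% of coding promoters and Pmepa1 more than 95.2%. Per site, Bhlhe40 was the strongest in Control at 9.18 times the median, followed by Pmepa1 at 8.06, Tgfb1 at 6.96 and Tgfb2 at 4.80. The order of Tgfb1 and Tgfb2 was thus reversed per site. Divided by the density of ends outside regions within 500 kb, a choice made after seeing the data, Control levels were 14.2 at Pmepa1, 12.6 at Tgfb2, 9.62 at Bhlhe40, 6.18 at Tgfb1, 5.88 at Tgfb3, 3.01 at Ltbp2 and 0.944 at Tgfbi times the median. The genes kept the order they had for plain ends, and Tgfb3 came close to Tgfb1. Pmepa1 had the densest CpG at 62 per kb, while Tgfbi had 22.2 per kb, near the median of 21.7.

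Contacts were counted as pairs on 1 chromosome that were 20 kb to 2 Mb apart with an end within 10 kb of the TSS, as a share of such pairs and relative to the median coding promoter. Pmepa1 had 755 contacts in Control and 340 in TGFB1, then 355 in TGFB1+miR-9-LOF and 395 with the antagomiR alone, or 4.44, 2.96, 2.73 and 2.76 times the median. The Control library stood above the other 3, which lay close together.

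Tgfb2 had 679, 355, 279 and 360 contacts, at 3.99, 3.09, 2.15 and 2.52 times the median, and Bhlhe40 had 669, 428, 347 and 432, at 3.94, 3.72, 2.67 and 3.02 times. For Bhlhe40 the Control and TGFB1 intervals overlapped, at 3.64 to 4.25 and 3.38 to 4.09. Tgfb1 had 527, 265, 213 and 328 contacts, or 3.10, 2.30, 1.64 and 2.29 times the median. Its values in TGFB1 and miR-9-LOF were alike and the value with both treatments was the lowest. The B9d2 promoter lies in the Tgfb1 window and that of Ift43 in the Tgfb3 window, so contacts there cannot be assigned to a single promoter.

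Tgfb3 had 360, 208, 205 and 214 contacts (2.12, 1.81, 1.58 and 1.5 times the median) and Ltbp2 had 297, 180, 148 and 172 (1.75, 1.57, 1.14 and 1.2 times). Both were highest in Control, and their other libraries overlapped in part. Tgfbi had 158, 105, 127 and 122 contacts, at 0.929, 0.913, 0.977 and 0.853 times the median, with overlapping intervals in all 4 libraries.

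The first comparison asked what 4 h of TGFB1 changed in cells without the antagomiR. For pair ends, TGFB1 over Control gave a log2 ratio of -0.53 at Tgfb1 (-0.72 to -0.34), -0.50 at Pmepa1 (-0.63 to -0.36), -0.40 at Tgfb2 (-0.55 to -0.24) and -0.34 at Bhlhe40 (-0.50 to -0.19). It was -0.18 at Tgfb3 (-0.42 to 0.06), -0.14 at Ltbp2 (-0.45 to 0.16) and 0.42 at Tgfbi (-0.06 to 0.91), whose intervals included 0. A ratio was called past 1.5-fold, which is 0.58 on the log2 scale, and 0 of the 7 were, against 13.0% of coding promoters. Promoters with an enriched region had a median of -0.34 in the same comparison, with 6.62% past 1.5-fold. Against promoters in the same decile of pooled ends the ratios ran from -0.18 at Tgfb1 to 0.36 at Tgfbi, with Tgfb3 (0.17), Ltbp2 (0.12) and Bhlhe40 (0.01) now above 0, and the interval of Pmepa1 alone left out 0 (-0.15, -0.28 to -0.01). Pmepa1 was above 99.7% of coding promoters in Control, so its decile consists mostly of weaker promoters. How many other coding promoters have a same-decile interval that leaves out 0 was not computed, here or in the comparisons below.

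In contacts Pmepa1 had the lowest ratio. Its log2 value was -0.59 (-0.78 to -0.40), just past the threshold, and 1.41% of coding promoters had a lower one. The ratios were -0.43 at Tgfb1 (-0.65 to -0.21) and -0.37 at Tgfb2 (-0.56 to -0.18). Intervals included 0 at Tgfb3 (-0.23, -0.48 to 0.02), Ltbp2 (-0.16, -0.43 to 0.11), Bhlhe40 (-0.08, -0.26 to 0.10) and Tgfbi (-0.03, -0.40 to 0.34). Past 1.5-fold was 1 of 7, against 4.20% of coding promoters, and promoters with a region had a median of -0.21, with 1.28% past it. Relative to promoters in the same decile of pooled contacts Pmepa1 was at -0.33 (-0.52 to -0.14), so the call did not hold there, although the interval left out 0. The intervals of the other 6 genes included 0 against this reference, with Tgfb1 at -0.17, Tgfb2 at -0.11 and Bhlhe40 at 0.18 (-0.0018 to 0.35).

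The TGFB1 library differed at Pmepa1 in which pairs its ends belonged to. Pairs 20 kb to 2 Mb apart held 32.4% of the Pmepa1 ends in TGFB1 (29.0 to 36.1), against 41.0% in Control, 43.3% in TGFB1+miR-9-LOF and 38.5% with the antagomiR alone. At promoters with a region the medians of this class were 41.4%, 41.7%, 40.2% and 40.4% in the order of libraries used above. At Ltbp2 the share was 51.6% in Control (45.4 to 57.8) and 39.7% in TGFB1 (32.2 to 47.8). At Bhlhe40 it was 47.9% in Control (44.9 to 51.0) and 53.6% in TGFB1 (49.3 to 57.8). Pairs under 1 kb apart held 19.5% of the Pmepa1 ends (16.6 to 22.6) in TGFB1, against 12%, 7.45% and 8.93%. From Control to TGFB1 this short share also rose at Tgfb1 (6.54% to 9.43%), Tgfb2 (14.0% to 17.8%), Tgfb3 (5.28% to 9.91%) and Bhlhe40 (8.22% to 9.51%). It fell at Ltbp2 (9 ends to 4) and Tgfbi (3 ends to 2). The Control and TGFB1 intervals of this short share overlapped at each gene but Pmepa1. At promoters with a region the medians of that short class were 4.13% in Control and 5.41% in TGFB1, then 2.82% in TGFB1+miR-9-LOF and 2.88% with the antagomiR alone, so the TGFB1 library was also highest there, and the part of such pairs in the Pmepa1 contact value was not tested.

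The second comparison asked what the antagomiR changed in TGFB1-treated cells. For pair ends, the log2 ratio of TGFB1+miR-9-LOF over TGFB1 was -0.93 at Ltbp2 (-1.33 to -0.54), -0.82 at Pmepa1 (-0.99 to -0.64) and -0.70 at Tgfb2 (-0.89 to -0.50), the 3 of 7 past 1.5-fold, against 26.3% of coding promoters. It was -0.54 at Bhlhe40, -0.51 at Tgfb3, -0.46 at Tgfb1 and -0.13 at Tgfbi (-0.62 to 0.36). The median over promoters with a region was -0.53, with 39.7% past 1.5-fold, and the share of ends in regions fell from 6.95% to 4.06% between these libraries. Against promoters of the same decile none of the 3 was past 1.5-fold, with Ltbp2 at -0.57 (-0.96 to -0.18, on 146 and 90 ends), Pmepa1 at -0.19 (-0.36 to -0.01) and Tgfb2 at -0.07 (-0.26 to 0.13). Tgfb1 (0.17), Bhlhe40 (0.09) and Tgfb3 (0.03) were then above 0, with intervals that included it.

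For contacts in the same comparison the ratios were -0.52 at Tgfb2 (-0.76 to -0.29), -0.49 at Tgfb1 (-0.76 to -0.23), -0.48 at Bhlhe40 (-0.69 to -0.27) and -0.46 at Ltbp2 (-0.78 to -0.14). Those of Tgfb3 (-0.20), Pmepa1 (-0.11) and Tgfbi (0.10) had intervals that included 0. None of the 7 was past 1.5-fold, against 5.84% of coding promoters, and promoters with a region had a median of -0.22. Against promoters of the same decile Ltbp2 alone had an interval that left out 0 (-0.33, -0.65 to -0.0044), Tgfb2 (-0.21), Tgfb1 (-0.18) and Bhlhe40 (-0.17) had intervals that included it, and Pmepa1 was at 0.20 (-0.02 to 0.41).

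The third comparison asked what the antagomiR changed without added TGFB1. The log2 ratio of miR-9-LOF over Control in pair ends was -0.98 at Pmepa1 (-1.11 to -0.84), -0.92 at Tgfb2 (-1.08 to -0.76), -0.77 at Ltbp2 (-1.10 to -0.45), -0.68 at Tgfb1 (-0.86 to -0.51) and -0.64 at Bhlhe40 (-0.79 to -0.49). These 5 of 7 were past 1.5-fold, against 42.4% of coding promoters. Tgfb3 was at -0.56 (-0.80 to -0.33) and Tgfbi at 0.17 (-0.30 to 0.64). Promoters with a region had a median of -0.66, with 63.9% past 1.5-fold, and the share of ends in regions was 9.62% against 4.71%. Against promoters of the same decile, Pmepa1 (-0.22, -0.36 to -0.09) and Tgfb2 (-0.17, -0.33 to -0.01) were lower with intervals that left out 0, while Tgfb1 (0.07), Tgfb3 (0.11) and Bhlhe40 (0.12) were on the other side of 0 with intervals that included it, and none of the 7 was past 1.5-fold.

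Contacts of miR-9-LOF over Control had log2 ratios of -0.69 at Pmepa1 (-0.86 to -0.51) and -0.67 at Tgfb2 (-0.85 to -0.48), the 2 past 1.5-fold, against 18.0% of coding promoters. Ltbp2 was at -0.54, Tgfb3 at -0.50, Tgfb1 at -0.43, Bhlhe40 at -0.38 and Tgfbi at -0.12, and the interval of Tgfbi alone included 0. Promoters with a region had a median of -0.33, with 10.8% past it. Against promoters of the same decile none was past it, Ltbp2 was at -0.32 (-0.59 to -0.04), Pmepa1 at -0.25 (-0.43 to -0.07) and Tgfb2 at -0.23 (-0.42 to -0.04), and Tgfb1 (0.0032) and Bhlhe40 (0.06) lay above 0.

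The fourth comparison, of TGFB1+miR-9-LOF over miR-9-LOF, asked what TGFB1 changed when miR-9 was inhibited, and it shares its libraries with both antagomiR comparisons. Pair ends gave -0.34 at Pmepa1 (-0.52 to -0.16), -0.30 at Tgfb1 (-0.52 to -0.08), -0.30 at Ltbp2 (-0.71 to 0.10), -0.24 at Bhlhe40 (-0.43 to -0.06), -0.17 at Tgfb2, -0.12 at Tgfb3 and 0.12 at Tgfbi, with 0 past 1.5-fold against 8.02% of coding promoters and a median of -0.20 over promoters with a region. Contacts gave -0.49 at Tgfb1 (-0.74 to -0.23), -0.23 at Tgfb2, -0.18 at Bhlhe40, -0.08 at Ltbp2, -0.02 at Pmepa1 (-0.23 to 0.19), 0.08 at Tgfb3 and 0.20 at Tgfbi, with 0 past 1.5-fold against 4.26% of coding promoters and a median of -0.09. Tgfb1 contacts were the lowest of the 7 here. In pair ends Ltbp2 was on the other side of 0, past 1.5-fold and higher, with windows of 1 kb, which hold few of its ends. Against promoters of the same decile all 7 intervals for pair ends included 0, with Pmepa1 at -0.11 (-0.29 to 0.07), Tgfb1 at -0.07, Bhlhe40 at -0.01 and Tgfb2 at 0.06, and for contacts Tgfb1 alone left out 0 (-0.36, -0.62 to -0.11).

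The effect of TGFB1 on contacts was thus -0.59 at Pmepa1 without the antagomiR and -0.02 with it. The difference was 0.57 (0.29 to 0.85). Its interval left out 0, as at 1 of the 7 genes in contacts, beside 10.7% of the coding promoters with contacts in all 4 libraries and 11.5% of those with a region. The difference was larger than at Pmepa1 at 2.12% of these coding promoters and at 2.39% of those with a region, whose median was 0.11. For pair ends at Pmepa1 the difference was 0.16 (-0.06 to 0.38). In pair ends the interval left out 0 at 0 of the 7 genes, beside 12.1% of coding promoters and 17.1% of those with a region. The interval covers counting error only and does not test the conditions.

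**Figure D3:**
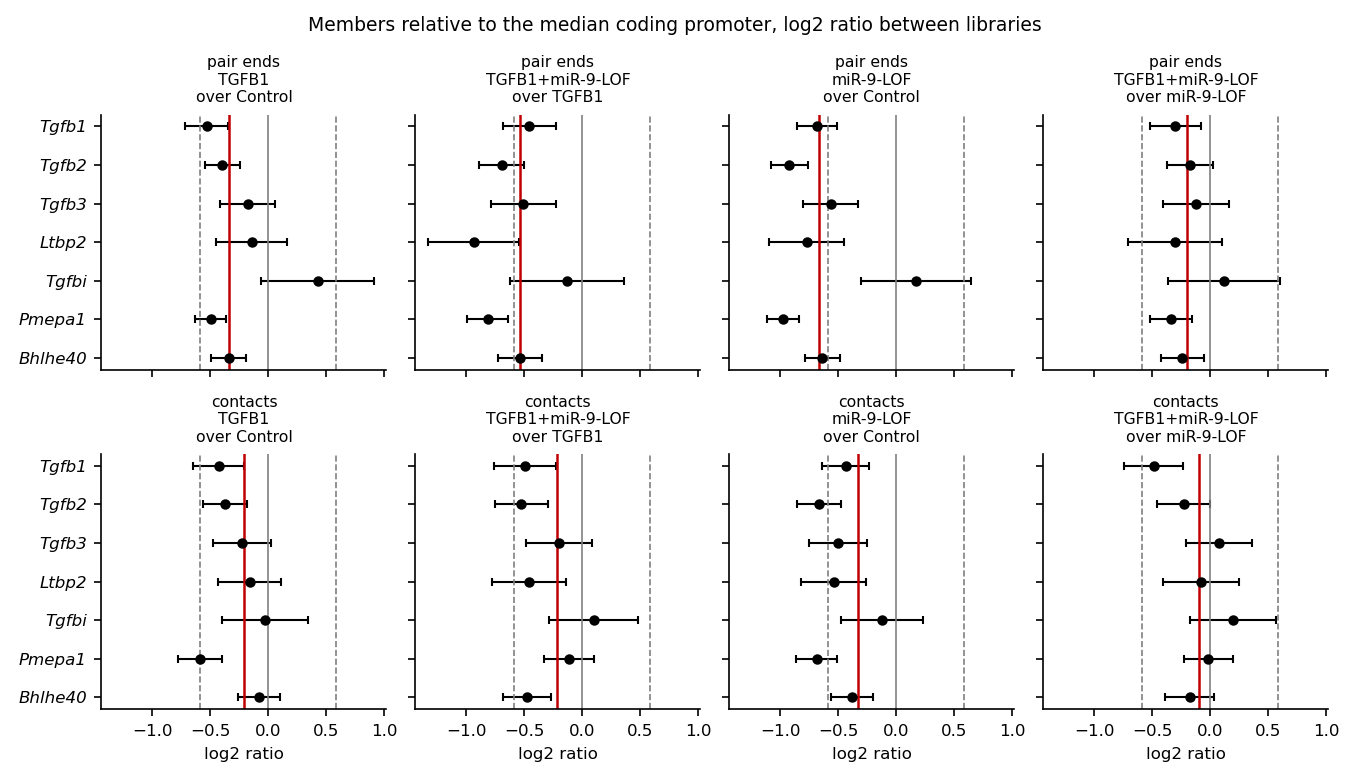
Log2 ratios between libraries for each gene in pair ends (upper panels) and contacts (lower panels), relative to the median coding promoter, with bars for the 95% counting interval, dashed lines at 1.5-fold and a red line at the median of promoters with an enriched region. Most points lie below 0 and near the red line, and Pmepa1 contacts are at -0.59 for TGFB1 over Control and at -0.02 for TGFB1+miR-9-LOF over miR-9-LOF.

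The partners of each promoter were found in 10-kb bins laid out from its TSS, with all 4 libraries pooled, against the number that the distance and the coverage of the bins predict. For each gene the 3 non-adjacent bins least likely under a Poisson count are named, and since they were picked for their values the excess is a description. The partner with the largest number of pairs above the expected one was that of Bhlhe40, which lay 215 kb upstream inside Itpr1, the gene of an inositol trisphosphate receptor (chr6:108440629-108450628). It held 101 pairs where 22.8 were expected (ratio 4.43, 3.6 to 5.38), with 41 in Control and 31 in TGFB1, then 12 in TGFB1+miR-9-LOF and 17 with the antagomiR alone. The next bins lay 235 kb upstream (64 pairs, 15.1 expected) and 125 kb upstream (58 pairs, 32.6 expected), both also in Itpr1. The pairs by library are not scaled to depth. Summed over the 3 bins, the ratio to the expected number was 3.62 in Control (2.91 to 4.46) and 3.33 in TGFB1. It was 2.90 in TGFB1+miR-9-LOF and 2.52 with the antagomiR alone (1.80 to 3.43), and all intervals overlapped.

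Tgfb2 contacted a bin 255 kb downstream of its TSS (chr1:186445989-186455988) with 64 pairs where 19 were expected (ratio 3.37, 2.60 to 4.31), at 31, 13, 9 and 11 pairs in the order of libraries used above. Bins 525 kb (28 pairs, 6.48 expected) and 1025 kb downstream (13 pairs, 1.62 expected) followed. No coding TSS and no coding gene lay in any of these 3 bins. Summed over them, the ratio to the expected number was 3.99, 3.36, 3.43 and 4.57 in the same order, with overlapping intervals.

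Tgfb3 contacted 3 bins downstream of its TSS, all within Ttll5, a tubulin glutamylase gene, at 205 kb (34 pairs, 5.89 expected, ratio 5.78, 4.00 to 8.07), 145 kb (32 pairs, 6.93 expected) and 125 kb (32 pairs, 7.25 expected). The first bin held 16 pairs in Control and 4 in TGFB1, then 12 in TGFB1+miR-9-LOF and 2 with the antagomiR alone. Summed over the 3 bins, the ratio to the expected number was 4.69, 4.36, 6.45 and 3.85 in the same order, with overlapping intervals. Since the Ift43 promoter lies in the same window, these pairs cannot be assigned to either promoter.

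Pmepa1 contacted bins 175 kb (78 pairs, 27.1 expected, ratio 2.88, 2.28 to 3.59), 105 kb (55 pairs, 25.5 expected) and 275 kb upstream (39 pairs, 15.6 expected), none of which held a coding gene. The first bin, at chr2:173446533-173456532, held 33, 20, 15 and 10 pairs. Summed over the 3 bins, Pmepa1 had 2.31 times the expected pairs in Control (1.80 to 2.92), 3.33 in TGFB1 (2.41 to 4.48), 2.21 in TGFB1+miR-9-LOF and 2.35 with the antagomiR alone. The bins held 70 pairs in Control, where 30.3 were expected, and 43 in TGFB1, where 12.9 were expected. The ratio to the expected number, which falls with the coverage of the promoter, was thus highest in TGFB1, with overlapping intervals, while the pairs in relation to depth were highest in Control.

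The bins of Ltbp2 held promoters or its own gene, namely those of Fcf1 and Arel1 at 95 kb upstream (35 pairs, 14.7 expected), that of Ylpm1 at 115 kb upstream (20 pairs, 7.10 expected) and the Ltbp2 gene body at 35 kb downstream (41 pairs, 22 expected). The strongest Ltbp2 bin changed under each alternative tried. It lay 117.5 kb away with 5-kb bins, 120 kb with 20-kb bins and 115 kb with the mapping quality filter or ranking by ratio. Tgfb1 contacted a bin in Ccdc97 25 kb downstream (85 pairs, 44.8 expected, ratio 1.90), and far bins at Sertad1 (7 pairs, 0.825 expected) and at Itpkc and Coq8b (10 pairs, 2.63 expected) that rest on few pairs. Since the B9d2 promoter lies in the Tgfb1 window, these pairs cannot be assigned to either promoter. Tgfbi had 6 pairs with a bin at B230219D22Rik 915 kb upstream, where 0.633 were expected, and 34 and 32 pairs in bins 25 kb away on either side (18.2 and 17.1 expected). The strongest bin of 3 of the 7 genes was the same when bins with at least 10 pairs were ranked by ratio.

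**Figure D4:**
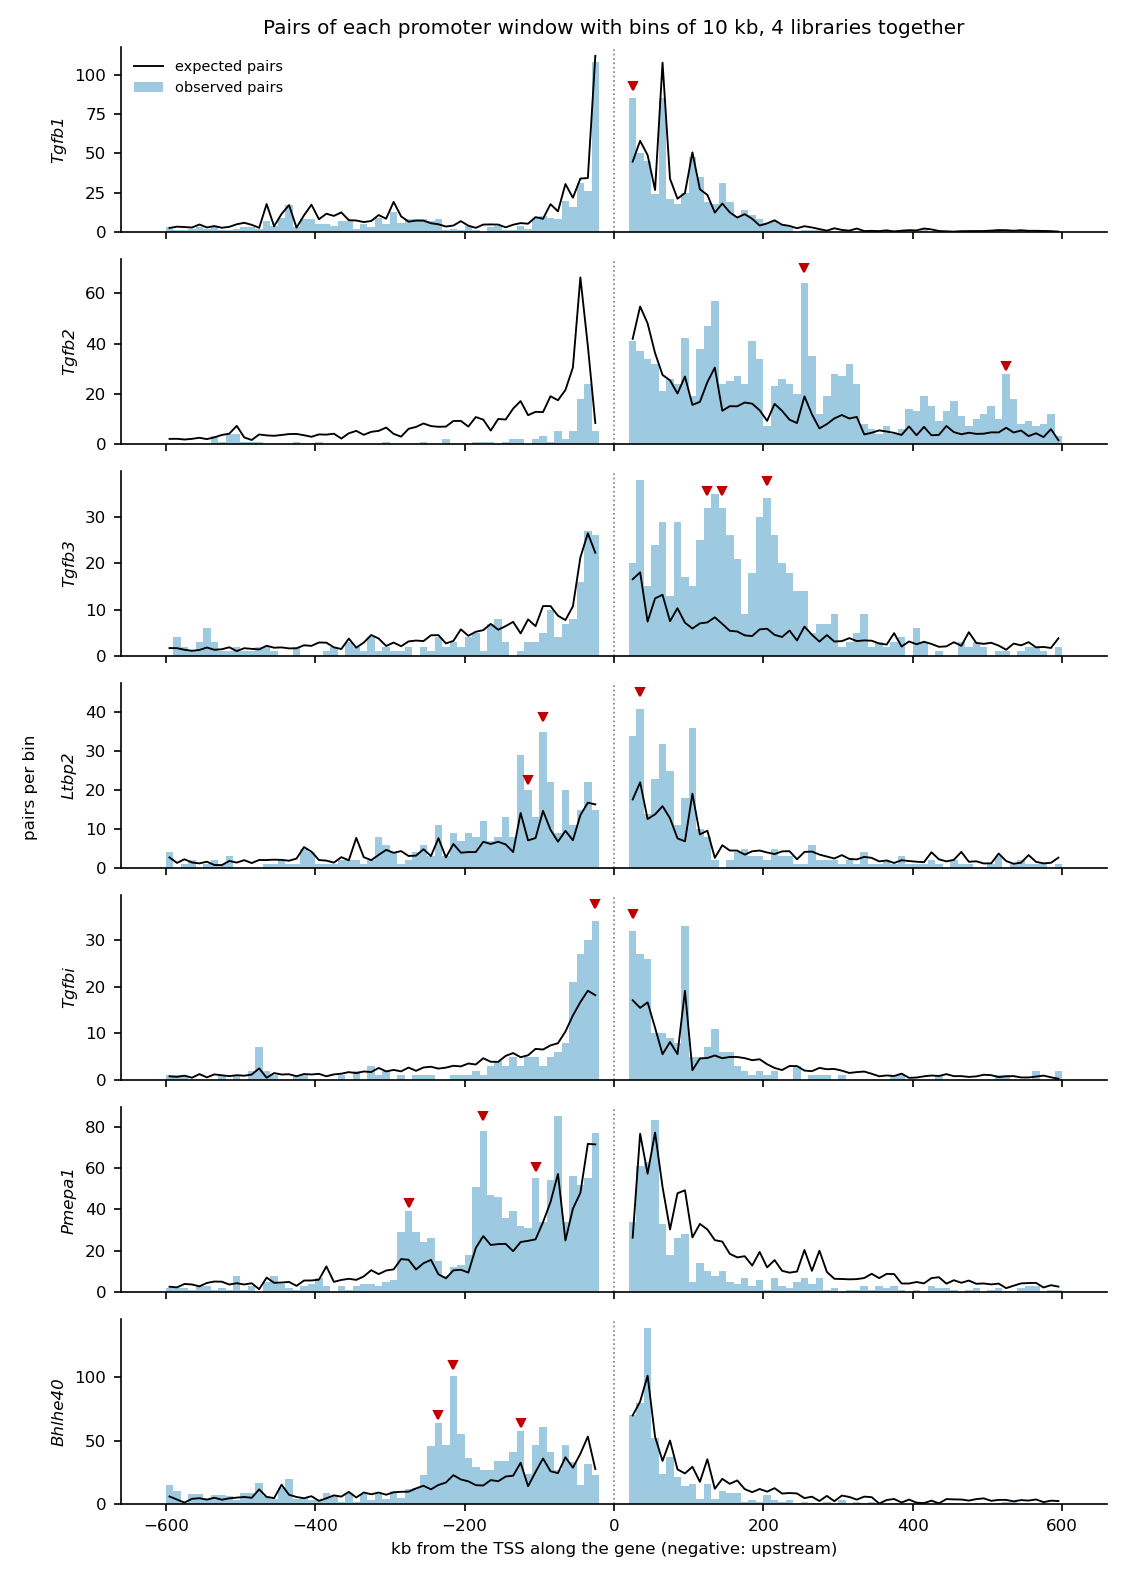
Pairs of each promoter window with bins of 10 kb by distance in kb from the TSS, all 4 libraries together, as observed (blue bars) and expected (black line), with red marks over the named bins in the range drawn. Observed pairs exceed the expected ones mostly downstream of Tgfb2 and Tgfb3 and upstream of Pmepa1 and Bhlhe40, whose bin at 215 kb holds 101 pairs.

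The share of contacts downstream of the TSS differed most from the expected share at Tgfb2, Tgfb3, Pmepa1 and Bhlhe40. Downstream pairs made up 92.0% of Tgfb2 pairs in the 4 libraries together (90.6 to 93.2, with 57.9% expected) and 73.9% of Tgfb3 pairs (71.0 to 76.5, with 52.5% expected). Bhlhe40 and Pmepa1 had more contacts upstream, with 32.5% (30.4 to 34.7) and 29.9% (27.8 to 32) of pairs downstream where 50.6% and 50.9% were expected. The side was the same in each library, with 90.0% to 93.1% downstream at Tgfb2, 68.8% to 77.6% at Tgfb3, 29.6% to 35.7% at Bhlhe40 and 25.3% to 33.4% at Pmepa1. Tgfb1 was also above its expected share, at 57.6% (54.9 to 60.2, with 46.9% expected) and 57.0% to 58.6% by library. Ltbp2 was at 46.3% (42.9 to 49.8, with 49.1% expected) and Tgfbi at 52.5% (48.1 to 56.9, with 47.2% expected), whose libraries lay on both sides of the expected share.

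**Figure D5:**
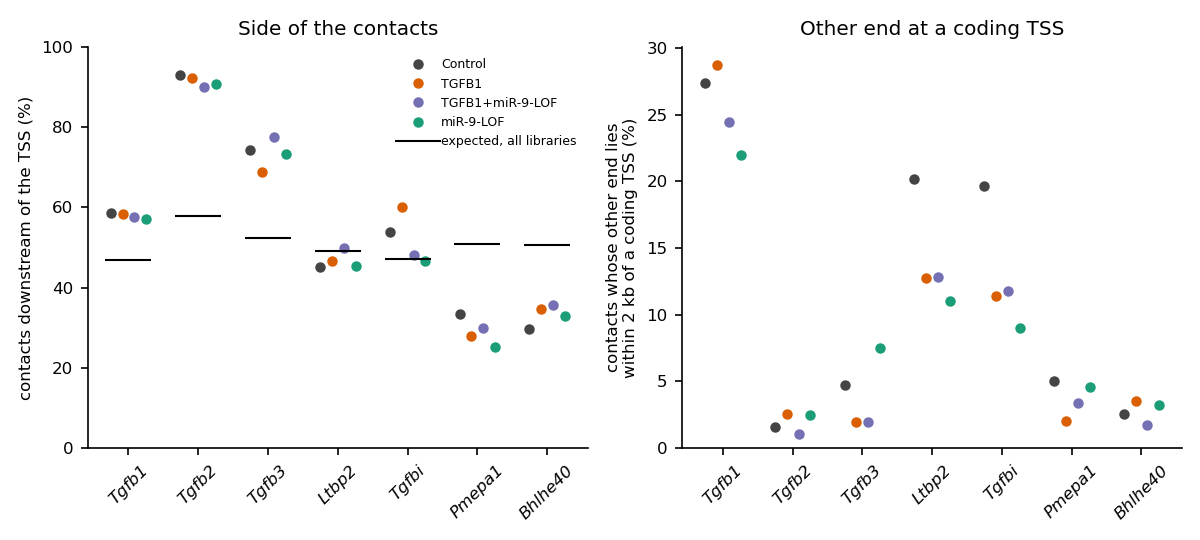
Share of contacts that lie downstream of the TSS (left, with black lines for the expected share) and share whose other end lies within 2 kb of a coding TSS (right), in percent, with 1 point per library. Tgfb2 and Tgfb3 lie above the expected share and Pmepa1 and Bhlhe40 below it in each library. Ltbp2, Tgfbi and Pmepa1 have their highest share of ends at a coding TSS in Control, with counting intervals that overlap those of the other libraries.

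The genes also differed in how far and to what they reached. The median contact distance in Control was 251 kb at Tgfb2, 177 kb at Tgfb3, 151 kb at Bhlhe40, 123 kb at Pmepa1, 110 kb at Tgfb1, 105 kb at Ltbp2 and 72.4 kb at Tgfbi. The other end lay at a coding TSS in 27.3% of Tgfb1 contacts in Control (23.7 to 31.3), but in 1.62% of Tgfb2 contacts (0.907 to 2.88), and these genes had 28 and 2 coding TSS within 500 kb. The Tgfb1 contacts include those of the B9d2 promoter in the same window. At Ltbp2 that share was 20.2% in Control (16.0 to 25.1) and 12.8%, 12.8% and 11% in the others, TGFB1 first and the antagomiR alone last. At Tgfbi it was 19.6% in Control (14.2 to 26.5) and 11.4%, 11.8% and 9.02% in the others, on 12, 15 and 11 contacts. The other intervals overlapped that of Control at both genes. They were 8.67 to 18.4, 8.37 to 19.2 and 7.19 to 16.6 at Ltbp2 and 6.66 to 18.9, 7.29 to 18.6 and 5.11 to 15.4 at Tgfbi. Ltbp2 and Tgfb3, which lie 1203 kb apart on chromosome 12, shared 1 pair where 2.26 were expected.

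Other genes of the pathway were listed by role, also with earlier results of these data known. Of 13 storage and activation genes, 9 had an enriched region, against 37.9% of all coding promoters, their median level was 3.51 times the median coding promoter in Control, and 0 were past 1.5-fold for TGFB1 over Control in pair ends, where 13.0% of coding promoters and 6.62% of those with a region were. Of 9 receptor and SMAD genes, 6 had a region, the median level of all 9 was 1.13, and 1 was past 1.5-fold in each direction, namely Acvrl1, a type I receptor, at 0.71 on the log2 scale (65 ends in Control and 70 in TGFB1) and Tgfbr1, the main type I receptor, at -0.80 (79 and 30 ends). Of 18 feedback and early target genes, 16 had a region, the median level of all 18 was 5.50, and 1 was past 1.5-fold, Ccn2, a matricellular growth factor gene, at -0.74 (776 and 307 ends). The same shares of all coding promoters, 37.9% with a region and 13.0% past 1.5-fold, apply to each list. In TGFB1+miR-9-LOF over TGFB1, 12 of the 18, 4 of the 9 receptor and SMAD genes and 1 of the 13 storage genes were past 1.5-fold and lower and 0 were past it and higher, where 26.3% of coding promoters and 39.7% of those with a region were past it in either direction. In miR-9-LOF over Control the numbers past it and lower were 12, 7 and 6, where 42.4% and 63.9% were past it in either direction. Acvrl1 was past it and higher, at 0.92 with 65 ends in Control and 105 with the antagomiR alone, so 8 of the 9 receptor and SMAD genes were past it in either direction. Pmepa1, Tgfb2, Bhlhe40 and Tgfb1 were above the median of each list in Control.

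Tgfb1, Tgfb2, Tgfb3, Ltbp2, Tgfbi, Pmepa1 and Bhlhe40 each had coding genes with nearly the same 4 levels elsewhere in the genome. The nearest by Euclidean distance of the 4 log2 levels was Cycs for Tgfb1 (0.04), Ing1 for Tgfb2 (0.08), Lactb for Tgfb3 (0.03), Tbrg1 for Ltbp2 (0.10), Caly for Tgfbi (0.09), Tnrc18 for Pmepa1 (0.08) and Adgra2 for Bhlhe40 (0.06). Within a distance of 0.5 there were 199 genes for Pmepa1, the fewest, and 1792 for Tgfb3, the most.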

How the data were processed

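The members and the gene lists were chosen with earlier results of these data known. The authors aligned the reads to mm10 and deposited the pairs that HiC-Pro kept as valid, 1 line per pair with the positions, strands, restriction fragments and a mapping quality score for each end, so the deposited score served only as a filter in an alternative. Each library was counted separately. Pair ends within 2 kb of the GENCODE TSS (5′ end of the gene record) and pairs 20 kb to 2 Mb apart with an end within 10 kb were counted for all 21728 coding genes, scaled to the library total and divided by the median coding promoter. Log2 ratios have exact conditional binomial 95% intervals, counts Poisson and shares Wilson intervals, which cover counting error only. Background shares used promoters with at least 1 count in both libraries, so they include many of low counts. Enriched regions were 1-kb bins with the 4 libraries pooled at equal depth (FDR 0.01, at least 4-fold over the chromosome mean and the local 100 kb). All 7 members are named, with genes in partner bins or contact windows, the coding gene nearest in its 4 levels (at least 50 pooled ends), and list genes with the highest and lowest ratios. Sequences are from RefSeq GRCm38.p6. No test between conditions was made, since each has 1 library. The scripts used matplotlib 3.10.9, pandas 2.3.3, statsmodels 0.14.6, scipy 1.17.1, pyarrow 21.0.0, numpy 2.4.6 and Python 3.11.15, and the counting was tested on simulated data. Alternatives were other windows, distance limits, start sites, filters, references and bin sizes.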

Additional observations from a re-analysis of the deposited data

Results flagged for a closer look

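At Pmepa1 the contact ratio of TGFB1 over Control was -0.59 without the antagomiR and -0.02 with it, a difference of 0.57 (0.29 to 0.85) on the log2 scale. It is given here because its counting interval left out 0, which held at 1 of the 14 differences computed, 7 genes by 2 measures. The interval also left out 0 at 10.7% of coding promoters in contacts and 12.1% in pair ends, and 2.12% of coding promoters had a larger difference in contacts than Pmepa1. The interval is not a test of the conditions, since each has 1 library. Under the 8 other settings tried for Pmepa1 contacts the difference ran from 0.41, with an end within 25 kb of the TSS, to 0.70, with an end within 5 kb. The TGFB1 library had the lowest share of Pmepa1 ends in pairs 20 kb to 2 Mb apart, at 32.4%, and the highest share in pairs under 1 kb apart, at 19.5%, and their part in the difference was not tested.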

How the results depend on the processing

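No paired analysis was possible because each condition has 1 library, and for the same reason no library could be left out. Among pair ends, windows of 1 kb put 3 of the 7 genes past 1.5-fold for TGFB1 over Control (Tgfb1 and Pmepa1 lower, Tgfbi higher) and 1 for TGFB1+miR-9-LOF over miR-9-LOF (Ltbp2, higher), where the main windows put 0 and 0. The calls of Tgfbi and Ltbp2 rest on few ends. Within 1 kb the fullest 0.5-kb bin of Tgfbi held 14 ends in Control and 13 in TGFB1. That of Ltbp2 held 7 in miR-9-LOF and 19 in TGFB1+miR-9-LOF. The share of coding promoters past 1.5-fold was computed with the main settings only, so no such share stands beside the counts under other settings. With the median of promoters with an enriched region as reference, 1 gene (Tgfbi, higher) was past it for TGFB1 over Control, 1 (Tgfbi, higher) for miR-9-LOF over Control and 0 between TGFB1+miR-9-LOF and TGFB1. With promoters of the same decile as reference the last 2 comparisons had 0 and 0. Under these references miR-9-LOF over Control turned from below to above 0 at Bhlhe40 (0.0202 for region promoters, 0.12 for the same decile) and at Tgfb1 (0.0695 for the same decile), which had been past 1.5-fold, and at Tgfb3 (0.09 and 0.11), which had not. Among contacts, the 1 call for TGFB1 over Control, Pmepa1, became 0 with the principal transcript's TSS (-0.579), pairs up to 1 Mb apart (-0.56), each fragment pair counted once (-0.54), region promoters (-0.40), a 25-kb window (-0.39) or the same decile (-0.33), against -0.587 with the main settings and a threshold of 0.585 on either side of 0. A 5-kb window put 2 genes, Tgfb2 and Bhlhe40, past 1.5-fold between TGFB1+miR-9-LOF and TGFB1. It put 4 genes past it for miR-9-LOF over Control, where a 25-kb window, region promoters and the same decile gave 0, 0 and 0. The strongest partner bin was the same for 4 of 7 genes with 20-kb bins and for 3 when bins with at least 10 pairs were ranked by ratio. The sign of a single gene's ratio changed in 38 of 448 ratios under the alternatives, 33 of them among the 112 with region promoters (17) or the same decile (16) as reference and 5 among the 336 others. The local background, an alternative chosen after seeing the data, put 6 of 7 genes above the median promoter in Control. Low counts at Tgfbi (70 to 79 ends) and Ltbp2 (90 to 244 ends) limit their ratios most.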
